A study of Mus musculus with 47 samples.

Results

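Transcription factors of the homeobox and paired-box families, other than the Hox clusters, were followed in brain RNA of 3xTg mice. The set held 53 genes, fixed as a list of symbols, and all 53 were found by gene symbol and Ensembl ID in both count tables, which list 55416 genes each. All groups shared the 3xTg background, which carries human transgenes for mutant forms of APP, tau and presenilin 1 and is a model of Alzheimer's disease. From 6 months of age and for 9 months, the mice ate an amino acid-defined Control diet, or the same kind of diet lowered in isoleucine (IleR), leucine (LeuR) or valine (ValR). The labels call the tissue brain, and RNA was extracted from the left hemisphere according to the methods. The males analysed were 4 Control-fed, 3 IleR-fed, 3 LeuR-fed and 4 ValR-fed, and the females were 6 Control-fed, 5 IleR-fed, 6 LeuR-fed and 6 ValR-fed, with 1 numbered library each. Another 10 male libraries in the labels were not analysed here.

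Homeobox factors bind DNA through a homeodomain, and in the embryo they divide the neural tube into territories along its front-to-back and back-to-belly axes. Otx, Emx and Dlx genes are known from the forebrain, engrailed, Gbx and Barhl genes from the midbrain, isthmus and hindbrain, and Tlx3 and Lbx1 from the dorsal hindbrain and spinal cord. Many of these genes stay on in adult neurons of the region they once patterned, so that their RNA level in a piece of brain also carries information on which regions the piece holds. In bulk RNA, fewer cells of a type and less RNA per cell cannot be told apart.

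Libraries held 10672599 to 25722333 counts, with a median of 15979541, and levels are given as CPM (counts scaled to a common library total) after TMM normalization. At these depths 1 count is worth less than 0.1 CPM, so that a listed 0 means no count was assigned. Every male library had a high level of the pan-neuronal list (Snap25, Rbfox3 and 4 others), between 8.77 and 9.30 as mean log2 CPM, which fits the brain label. Regional marker lists separated male libraries. As mean log2 CPM, the Cerebellum level of each diet lay above Control and the Forebrain level below it, the Hypothalamus level lay above Control for LeuR and overlapped for IleR and ValR, and the Thalamus and Midbrain dopamine neuron levels overlapped for each diet. The summed level of the 11 Cerebellum markers was 37.3 to 54.2 CPM in the 4 Control-fed males, against 1163 to 3201 CPM in IleR-fed, 159 to 1167 CPM in LeuR-fed and 1258 to 4234 CPM in ValR-fed males. All 11 Cerebellum markers lay higher in each IleR-fed and ValR-fed library than in each Control library, and Gabra6, which defines cerebellar granule cells, was at 0 to 0.0637 CPM in Control-fed males and at 117 to 435 CPM in ValR-fed males. LeuR 21 differed from the other LeuR libraries, as Gabra6 was at 0 in it and Fat2 (0.169 CPM), Cbln3 (0.677 CPM), Car8, Gdf10 and Pcp2 were no higher than in the highest Control library, so that 5 of the 11 markers were above Control in each LeuR library. The 10 Brainstem and spinal cord markers summed to 8.28 to 31.4 CPM in Control-fed, 90.2 to 367 CPM in IleR-fed, 168 to 750 CPM in LeuR-fed and 130.2 to 553 CPM in ValR-fed males. As mean log2 CPM, however, this list was lower in LeuR 21 (0.23) than in Control 4 (0.40), so that LeuR overlapped with Control (two-sided exact permutation p = 0.0571, and 0.281 after adjustment over 54 comparisons). The 12 Forebrain markers went the other way, with 786 to 2830 CPM in Control-fed, 179.8 to 298 CPM in IleR-fed, 310.1 to 555 CPM in LeuR-fed and 212 to 274 CPM in ValR-fed males. Diet and the regional make-up of the male libraries therefore cannot be told apart, and this holds for each male comparison of diets with Control below.

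Sequences upstream of the members were taken from RefSeq for GRCm38.p6, from 250 bases before to 50 bases after an annotated start. They were matched for 40 of the 53 members, with 51 windows. A pair of members that rose in males (Tlx3 and Barhl2) and a pair that fell (Emx2 and Dlx1) are shown because the male results below turn on them. They were chosen after their values were seen. Capitals mark CG dinucleotides.
Tlx3, chr11:33203539-33203838, minus strand: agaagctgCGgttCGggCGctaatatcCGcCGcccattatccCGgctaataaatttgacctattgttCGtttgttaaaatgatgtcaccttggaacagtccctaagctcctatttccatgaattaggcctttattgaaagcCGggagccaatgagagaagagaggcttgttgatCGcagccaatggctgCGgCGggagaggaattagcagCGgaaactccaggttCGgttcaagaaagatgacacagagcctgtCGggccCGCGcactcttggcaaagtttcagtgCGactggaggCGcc
Barhl2, chr5:106458117-106458416, minus strand: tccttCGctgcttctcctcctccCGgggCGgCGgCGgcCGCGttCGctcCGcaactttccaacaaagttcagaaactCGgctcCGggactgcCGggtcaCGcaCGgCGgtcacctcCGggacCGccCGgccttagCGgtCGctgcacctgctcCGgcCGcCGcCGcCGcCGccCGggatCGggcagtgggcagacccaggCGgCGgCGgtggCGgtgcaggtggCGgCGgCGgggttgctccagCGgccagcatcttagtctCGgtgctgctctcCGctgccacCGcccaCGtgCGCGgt
Emx2, chr19:59458440-59458739, plus strand: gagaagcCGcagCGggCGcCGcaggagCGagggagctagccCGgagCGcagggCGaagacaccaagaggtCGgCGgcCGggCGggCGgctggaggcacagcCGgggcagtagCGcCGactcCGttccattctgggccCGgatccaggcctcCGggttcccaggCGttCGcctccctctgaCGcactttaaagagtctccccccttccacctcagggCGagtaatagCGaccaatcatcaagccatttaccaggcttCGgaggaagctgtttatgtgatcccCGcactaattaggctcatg
Dlx1, chr2:71529195-71529494, plus strand: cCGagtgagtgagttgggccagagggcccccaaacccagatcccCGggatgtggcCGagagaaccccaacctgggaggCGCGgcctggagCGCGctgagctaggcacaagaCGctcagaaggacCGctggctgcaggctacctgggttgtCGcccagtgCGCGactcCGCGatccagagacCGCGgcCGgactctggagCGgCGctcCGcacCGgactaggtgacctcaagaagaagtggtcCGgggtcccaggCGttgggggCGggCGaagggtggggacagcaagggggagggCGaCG
The windows held 18, 42, 26 and 27 CG dinucleotides in that order, with a GC content of 51.7%, 73.7%, 64.3% and 69.3%. Over the 51 windows of the members the median was 18 CG dinucleotides and 60.33% GC, against 7 and 52.67% over all 32851 windows of the table. The letters TAATTA, a core bound by many homeodomains, which read the same on both strands, stood in 2 of the 51 windows (3.92%, Emx2 and Barhl1) and in 5.29% of all windows. The POU octamer ATGCAAAT was in 0 of the 51 on either strand, against 1.74% of all, and the MEIS core TGACAG was in 9 (17.6%), against 19.2%. A match is a description of the letters in the window only.

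In males, 50 of the 53 members passed the filter on low counts, and Hmx2, Hmx3 and Lhx8 did not. Members were called where edgeR's quasi-likelihood test gave an adjusted p below 0.05 over all 22197 genes tested. Against Control, 14 of 50 members rose in IleR-fed males (6.63% of all genes rose) and 6 fell (8.68% of all genes fell). In LeuR-fed males 8 rose (3.81% of all genes) and 5 fell (6.33%). These LeuR calls depended on the fit, since with LeuR and Control alone in the model edgeR called 0 members and 0 genes (14 members and 4607 genes at an unadjusted p below 0.05), limma voom kept 7 of the 13 and DESeq2 kept all 13. In ValR-fed males 14 rose (11.1% of all genes) and 14 fell (12.4%). Taken in either direction, 40.0%, 26.0% and 56.0% of the members were called, against 15.3%, 10.1% and 23.5% of all genes. The 3 comparisons share the 4 Control libraries. The median log2 fold change of the members was 0.76, 0.39 and −0.02 for IleR, LeuR and ValR, against 0.04, 0.05 and 0.03 over all genes tested, and it did not move when the members with a group at 0 were set to their bound.

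**Figure D1:**
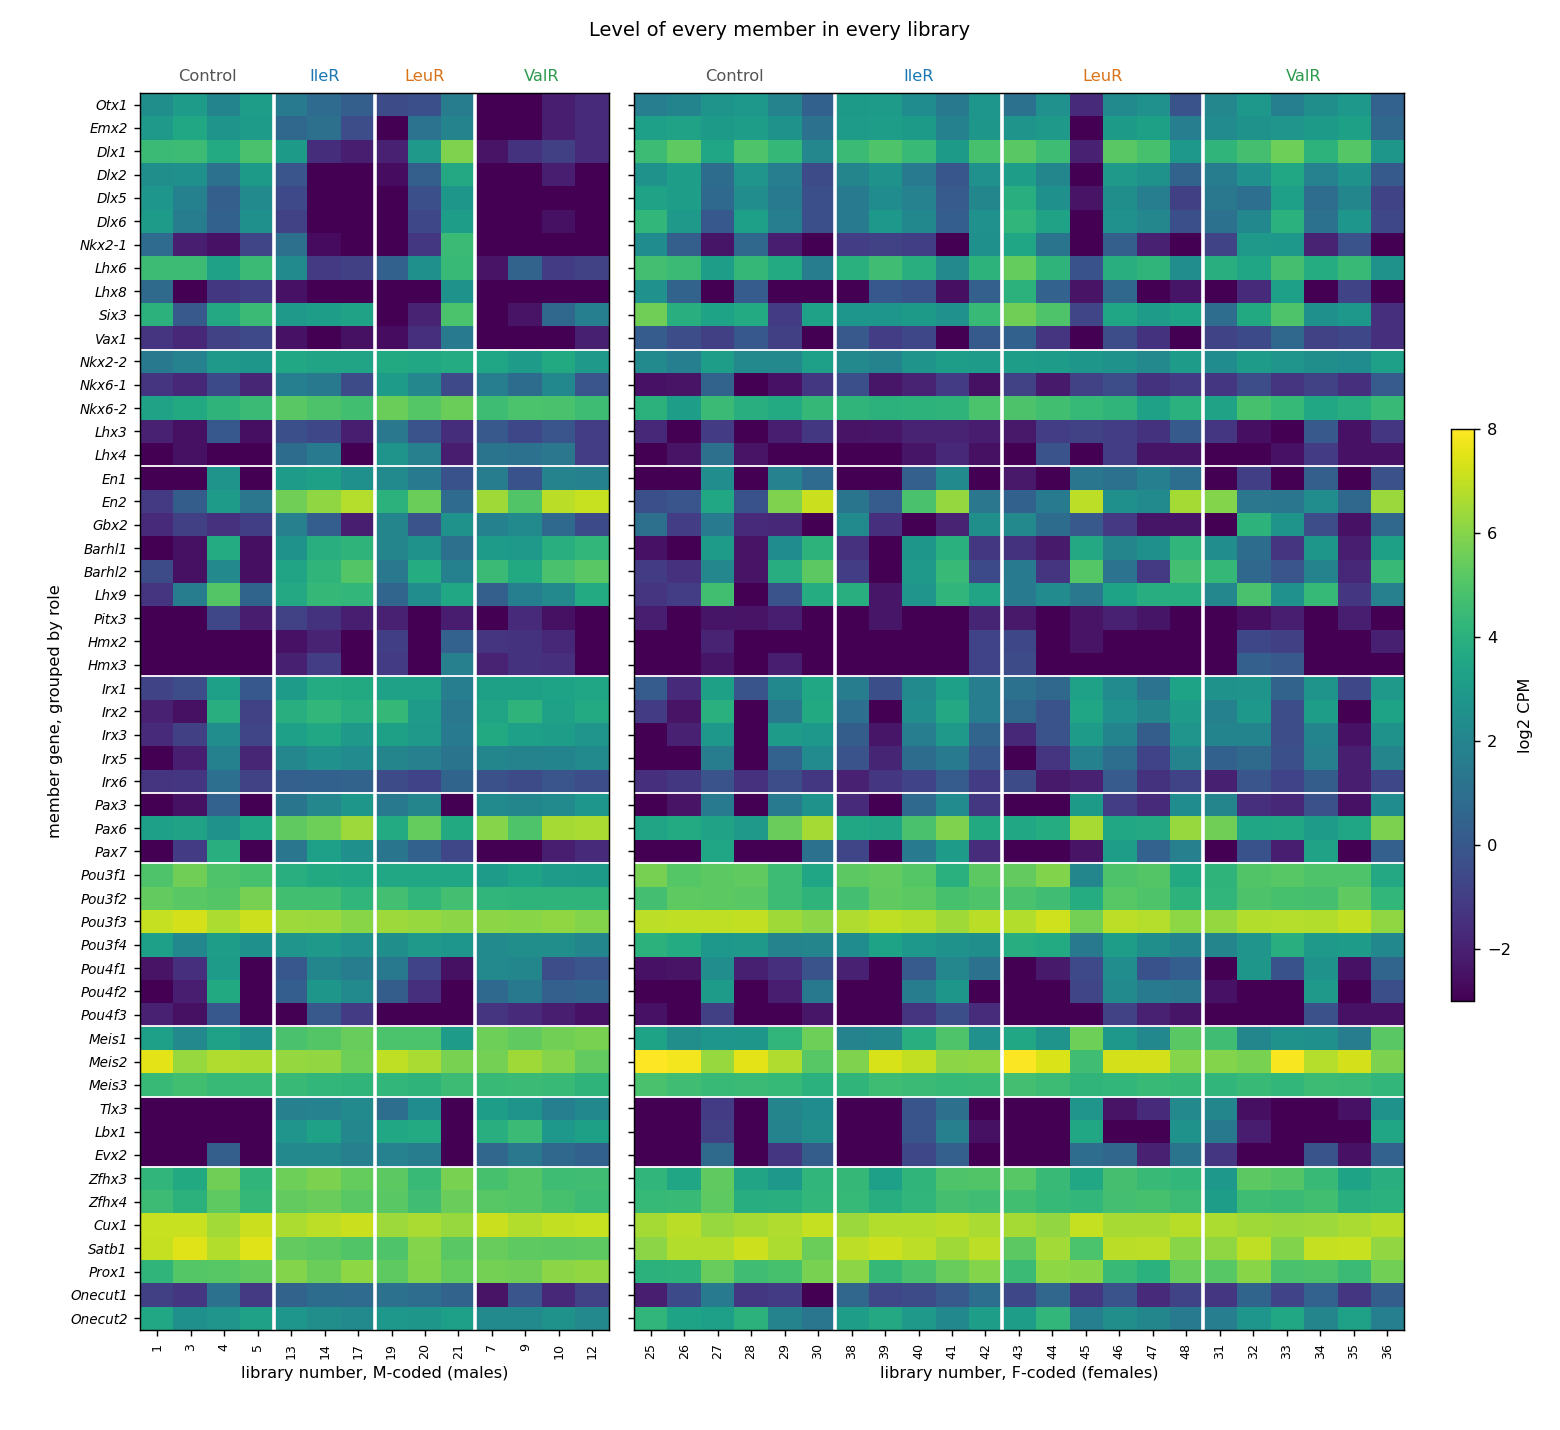
Heat map of the level of each of the 53 members (rows, grouped by role) in each of the 37 libraries (columns, grouped by sex and diet), as log2 CPM with a prior count of 2 and a colour scale from −3 to 8. The male Control columns are dark for Tlx3 and Lbx1, which had 0 counts in all 4, and the male ValR columns are dark for the Dlx genes, while columns of a female diet differ among themselves.

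The called genes are given by role, and the counts of each role list are to be read against the shares of all genes given above. The members that fell in males were forebrain factors, POU factors, Satb1, Meis2, Onecut2 and Pax7, and those that rose were factors of the ventral neural tube, midbrain and isthmus, dorsal hindbrain and spinal cord, with Irx3, Pax3, Pax6, Meis1 and Prox1. Called in the same direction for all 3 diets were 7 members that rose (Lbx1, Lhx4, Meis1, Nkx2-2, Nkx6-1, Nkx6-2 and Tlx3) and 4 that fell (Pou3f1, Pou3f2, Pou3f3 and Satb1). Another 6 rose for IleR and ValR, namely Barhl2, En2, Irx3, Pax3, Pax6 and Prox1. Another 7 members, all of which fell, passed the threshold for ValR and missed it for the other diets, and 21 of the 50 were called for no diet. No member rose for 1 diet and fell for another. The share of all genes with each of these patterns is not given here, so the pattern counts have no background. Because the 3 comparisons share the Control libraries, agreement among the diets is not separate evidence.

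How many members were called depended on single libraries. When 1 library was left out, 6 to 26 members rose for IleR, 2 to 23 for LeuR and 8 to 22 for ValR. Over all genes, 1838 to 4357, 543 to 3952 and 3843 to 5990 were called in either direction in the same order. Without Control 4, 34 members were called for IleR (26 rose and 8 fell), 29 for LeuR (23 and 6) and 35 for ValR (22 and 13). Over all genes, 19.5%, 17.7% and 24.8% were called in those fits, against 15.3%, 10.1% and 23.5% with all libraries. Control 4 differed from the other Control-fed males in carrying high levels of several midbrain and hindbrain members, such as 13.3 CPM of Barhl1 and 14.6 CPM of Irx2, and its midbrain dopamine neuron markers summed to 78.1 CPM. Without LeuR 21, 18 members were called for LeuR, where 14.7% of all genes were, and hypothalamic markers summed to 777 CPM in that library, against at most 21.2 CPM in every other male library. When a hindbrain score (the average of the 2 hindbrain marker levels, Cerebellum with Brainstem and spinal cord, minus the Forebrain level) was put in the model, 1, 2 and 0 members were called for IleR, LeuR and ValR. That score did not overlap between Control-fed males (−7.71 to −4.27) and any restricted diet (the lowest value was −3.44, in LeuR 21), so that diet and score cannot be told apart in that model.

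**Figure D2:**
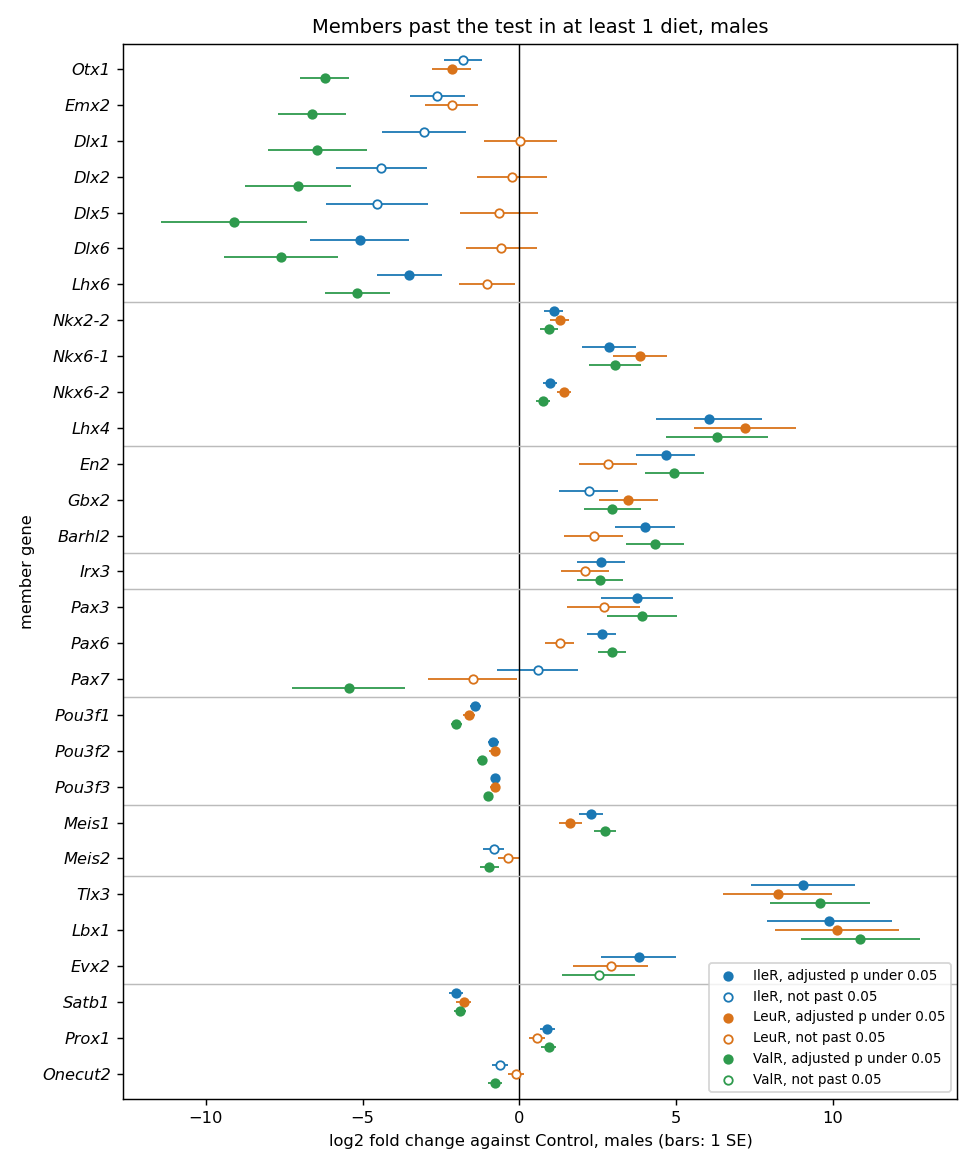
Log2 fold change against Control in males (x axis, with a bar of ±1 SE) for the 29 members called for at least 1 diet. IleR, LeuR and ValR share 1 panel and are told apart by colour within the row of each gene. Filled points had an edgeR adjusted p below 0.05, and the values of Tlx3, Lbx1 and, for ValR, Dlx5 depend on the prior count because 1 group had 0 counts. The filled points left of 0 are telencephalon and GABA neuron factors, POU factors, Satb1 and, for ValR, also Meis2, Onecut2 and Pax7, and the other filled points lie right of it.

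The telencephalon and GABA neuron lineage gave 11 members, of which 10 were tested in males. Of these, 2 fell in IleR-fed, 1 in LeuR-fed and 7 in ValR-fed males, and 0 rose. Over all genes, 8.68%, 6.33% and 12.4% fell in the same order. Otx1 (ENSMUSG00000005917, chr11:21994764-22002897, minus strand), a factor of the cerebral cortex, was at 5.52, 8.17, 3.82 and 8.55 CPM in Control-fed, 2.86, 1.70 and 1.13 in IleR-fed, 0.627, 0.692 and 3.05 in LeuR-fed and 0, 0, 0.118 and 0.191 in ValR-fed males. Every Control library lay above every restricted library, and the ValR libraries held 0 to 3 counts. On the log2 scale the fold changes were −1.79 ± 0.60 (IleR), −2.15 ± 0.62 (LeuR) and −6.21 ± 0.77 (ValR), with edgeR adjusted p = 0.0619, 0.0424 and 0.000181, so that Otx1 passed the test for LeuR and ValR. Without Control 4 or without LeuR 21 it passed for IleR too (edgeR adjusted p = 0.0416 and 0.0189). When each library was left out in turn, the ValR call held in all 14 fits, and the LeuR call held only in the 6 of 14 fits without Control 4, ValR 9, ValR 12, IleR 13, IleR 17 and LeuR 21, with an edgeR adjusted p of up to 0.160 in the others.

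Lhx6 (ENSMUSG00000026890, chr2:36081953-36105408, minus strand), which marks cortical interneurons from the medial ganglionic eminence, was at 22.9, 23.4, 9.74 and 22.2 CPM in Control-fed, 4.59, 0.339 and 0.415 in IleR-fed, 1.21, 5.61 and 21.7 in LeuR-fed and 0.0720, 1.28, 0.354 and 0.446 in ValR-fed males. LeuR 21 was as high as the Control libraries while IleR-fed and ValR-fed males stayed below them. Its log2 fold change was −3.50 ± 1.02 (IleR), −1.04 ± 0.89 (LeuR) and −5.16 ± 1.04 (ValR), with edgeR adjusted p = 0.0342, 0.487 and 0.00291, and the IleR call was lost without Control 1, Control 3, Control 5, IleR 14 and IleR 17, with an edgeR adjusted p of up to 0.125. Dlx6 (ENSMUSG00000029754, chr6:6863334-6868568, plus strand), a factor of GABA neurons, was at 8.31, 3.08, 1.21 and 5.64 CPM in Control-fed, 0.435, 0 and 0 in IleR-fed, 0, 0.538 and 8.58 in LeuR-fed and 0, 0, 0.0590 and 0 in ValR-fed males. IleR 14 and 17, LeuR 19 and 3 ValR libraries held none of it. With 1 count over the 4 ValR libraries, Control was 277 times higher (95% counting interval 49.3 to 10970; edgeR adjusted p = 0.00863). The IleR fold change of Dlx6 was −5.09 ± 1.57 (edgeR adjusted p = 0.0440), and the call held only in the 5 of 14 fits without Control 4, IleR 13, LeuR 19, LeuR 20 and LeuR 21, with an edgeR adjusted p of up to 0.155 in the others. Without LeuR 21, Dlx6 passed for LeuR (edgeR adjusted p = 0.0458).

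Dlx1, Dlx2 and Dlx5, also of the DLX family, and Emx2 fell for ValR and missed the threshold for the other diets. Without LeuR 21, Dlx2, Dlx5 and Emx2 also passed for IleR (edgeR adjusted p = 0.0182, 0.0374 and 0.0382), and Dlx2 did so without Control 4 (edgeR adjusted p = 0.0452). Dlx1, a neighbour of Dlx2 on chromosome 2 with 9427 bases between the genes, was at 22.3, 23.4, 13.2 and 28.4 CPM in Control-fed, 7.88, 0.226 and 0.118 in IleR-fed, 0.134, 7.38 and 59.3 in LeuR-fed and 0.0720, 0.270, 0.413 and 0.191 in ValR-fed males. It fell for ValR by 6.45 on the log2 scale (edgeR adjusted p = 0.00983) and LeuR 21 lay above every Control library. Dlx2 was at 2.04 to 7.93 CPM in Control-fed males and held 2 counts over the 4 ValR libraries, a ratio of 164 (95% counting interval 45.0 to 1358, edgeR adjusted p = 0.00875). Dlx5 was at 1.15 to 6.67 CPM in Control-fed males and at 0 in all 4 ValR libraries, which makes it at least 20.4-fold lower against a floor of 3 counts per library (edgeR adjusted p = 0.0170). Emx2, a factor of the dorsal telencephalon, was at 7.42, 12.1, 6.43 and 8.33 CPM in Control-fed, 1.49, 2.00 and 0.652 in IleR-fed, 0, 2.15 and 3.67 in LeuR-fed and 0, 0, 0.118 and 0.191 in ValR-fed males, and fell for ValR (log2 fold change −6.60 ± 1.08, edgeR adjusted p = 0.000789). All 4 of these calls held in all 14 fits that left out 1 library.

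With all libraries, the other tested forebrain members, Six3, Nkx2-1 and Vax1, missed the threshold. Without LeuR 21, Six3 was lower and passed for LeuR and ValR (edgeR adjusted p = 0.0208 and 0.0207), and Vax1 was lower and passed for IleR and ValR (edgeR adjusted p = 0.0412 and 0.0227). Six3, a factor of the anterior forebrain and eye, was at 0.947 to 22.3 CPM in Control-fed and at 0 to 3.25 CPM in ValR-fed males. Nkx2-1 was at 0.0637 to 1.70 CPM in Control-fed males, at 0 in all ValR-fed males and at 22.7 CPM in LeuR 21, and Lhx8, not tested, reached 6.04 CPM in the same library. Vax1 was likewise highest in LeuR 21, at 2.71 CPM. Dlx1, Dlx2, Dlx5, Dlx6, Six3, Nkx2-1, Lhx8 and Vax1 thus each had their highest male level in LeuR 21, the library with the hypothalamic markers, and the part of those cells in these levels was not tested.

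Of the 5 ventral neural tube members, 4 rose for each diet, and Lhx3 passed no test with all libraries, but passed for LeuR and ValR without Control 4 (edgeR adjusted p = 0.0158 and 0.0379). Nkx6-2 (ENSMUSG00000041309, chr7:139579376-139582797, minus strand), which is also kept on in mature oligodendrocytes, was at 10.0, 12.7, 17.8 and 22.3 CPM in Control-fed, 36.6, 30.5 and 25.4 in IleR-fed, 46.5, 34.4 and 46.7 in LeuR-fed and 24.2, 29.7, 28.2 and 24.0 in ValR-fed males. All restricted libraries lay above all Control libraries. The test gave log2 fold changes of 0.97 ± 0.23 (IleR), 1.44 ± 0.23 (LeuR) and 0.75 ± 0.21 (ValR), with edgeR adjusted p = 0.0115, 0.00447 and 0.0213. The IleR call was lost without IleR 13, with an edgeR adjusted p of up to 0.0535, and the ValR call was lost without Control 1, Control 3 and ValR 10, with an edgeR adjusted p of up to 0.0663. Oligodendrocyte markers summed to 4561 to 9564 CPM in Control-fed, 10223 to 14941 CPM in IleR-fed, 6433 to 18029 CPM in LeuR-fed and 9514 to 16353 CPM in ValR-fed males, and their part in the level of Nkx6-2 and Nkx2-2 was not tested.

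Nkx2-2, which acts in ventral progenitors and in the oligodendrocyte lineage, was at 2.59, 3.61, 7.32 and 6.98 CPM in Control-fed, 11.7, 10.7 and 10.6 in IleR-fed, 12.5, 11.7 and 13.5 in LeuR-fed and 11.0, 8.02, 12.8 and 7.71 in ValR-fed males. The restricted libraries again lay above all Control libraries, and the gene rose by 1.10 ± 0.30 (IleR), 1.29 ± 0.30 (LeuR) and 0.94 ± 0.28 (ValR) on the log2 scale (edgeR adjusted p = 0.0254, 0.0190 and 0.0279). The IleR call was lost without Control 3, IleR 13, IleR 14 and IleR 17, with an edgeR adjusted p of up to 0.0743, the LeuR call was lost without Control 3 and LeuR 19, with an edgeR adjusted p of up to 0.0655, and the ValR call was lost without Control 1, Control 3, ValR 7 and ValR 10, with an edgeR adjusted p of up to 0.0893. Nkx6-1 (ENSMUSG00000035187, chr5:101658139-101664996, minus strand), a factor of ventral progenitors and motor neurons, was at 0.272, 0.178, 0.573 and 0.168 CPM in Control-fed, 3.29, 2.60 and 0.592 in IleR-fed, 8.19, 4.15 and 0.564 in LeuR-fed and 3.17, 1.75, 4.25 and 0.828 in ValR-fed males. The lowest restricted values, in IleR 17, LeuR 21 and ValR 12, were at or near that of Control 4. Its log2 fold change was 2.85 ± 0.86 (IleR), 3.84 ± 0.86 (LeuR) and 3.06 ± 0.83 (ValR), with edgeR adjusted p = 0.0408, 0.0166 and 0.0175. The IleR call held only in the 7 of 14 fits without Control 4, ValR 9, ValR 10, ValR 12, IleR 17, LeuR 19 and LeuR 21, with an edgeR adjusted p of up to 0.127 in the others, the LeuR call was lost without Control 1, Control 3 and LeuR 19, with an edgeR adjusted p of up to 0.0904, and the ValR call was lost without Control 3, Control 5 and ValR 10, with an edgeR adjusted p of up to 0.0536.

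Lhx4 (ENSMUSG00000026468, chr1:155698031-155751684, minus strand), a factor of motor neurons and the pituitary, was at 0, 0.0592, 0 and 0 CPM in Control-fed, 1.74, 2.67 and 0 in IleR-fed, 6.36, 3.38 and 0.113 in LeuR-fed and 2.23, 2.09, 2.42 and 0.382 in ValR-fed males. With 1 Control count, the ratio to Control was 108 (95% counting interval 19.0 to 4325) for IleR, 231 (40.9 to 9170) for LeuR and 116 (20.3 to 4614) for ValR, although IleR 17 was at 0 (edgeR adjusted p = 0.0278, 0.0172 and 0.0134). The IleR call was lost without Control 1, Control 3, Control 4, Control 5, IleR 13 and IleR 14, with an edgeR adjusted p of up to 0.106, the LeuR call was lost without Control 1, Control 3 and LeuR 19, with an edgeR adjusted p of up to 0.0752, and the ValR call held in all 14 fits.

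Among the 9 members of the diencephalon, midbrain and isthmus, 7 were tested, of which 2 rose with IleR, 1 with LeuR and 3 with ValR. Over all genes, 6.63%, 3.81% and 11.1% rose in the same order. En2 (ENSMUSG00000039095, chr5:28165694-28172166, plus strand), an engrailed factor of the midbrain and cerebellum, was at 0.341, 1.07, 8.08 and 2.46 CPM in Control-fed, 48.5, 71.1 and 109 in IleR-fed, 16.8, 46.3 and 1.69 in LeuR-fed and 86.7, 32.4, 115 and 134 in ValR-fed males. IleR-fed and ValR-fed males lay above all Control males, while LeuR 21 was within the Control range. The log2 fold change was 4.67 ± 0.94 (IleR), 2.84 ± 0.92 (LeuR) and 4.95 ± 0.93 (ValR), with edgeR adjusted p = 0.00541, 0.0660 and 0.00192, and the IleR and ValR calls held in all 14 fits that left out 1 library. Without Control 4 or without LeuR 21 it also passed for LeuR (edgeR adjusted p = 0.0166 and 0.0134). Barhl2 (ENSMUSG00000034384, chr5:106452523-106458166, minus strand), expressed in diencephalon, hindbrain and spinal cord, was at 0.613, 0.0592, 4.39 and 0.0559 CPM in Control-fed, 10.5, 18.0 and 32.7 in IleR-fed, 2.55, 13.9 and 3.50 in LeuR-fed and 22.7, 12.7, 28.7 and 36.4 in ValR-fed males. IleR-fed and ValR-fed males were above all Control males, and LeuR 19 and LeuR 21 were below Control 4. Its log2 fold change was 4.01 ± 0.95 (IleR), 2.37 ± 0.95 (LeuR) and 4.31 ± 0.93 (ValR), with edgeR adjusted p = 0.0121, 0.127 and 0.00450. The IleR call was lost without IleR 17, with an edgeR adjusted p of up to 0.0547, and without Control 4 Barhl2 also passed for LeuR.

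Gbx2 (ENSMUSG00000034486, chr1:89927956-89931179, minus strand), which sets the border between midbrain and hindbrain and is on in thalamus, was at 0.204, 0.414, 0.255 and 0.391 CPM in Control-fed, 3.35, 1.09 and 0.118 in IleR-fed, 3.85, 0.768 and 6.21 in LeuR-fed and 3.45, 4.58, 1.59 and 0.573 in ValR-fed males. All Control values were under 0.5 CPM, as was IleR 17, and the other restricted libraries were above them. Its log2 fold change was 2.21 ± 0.94 (IleR), 3.48 ± 0.93 (LeuR) and 2.96 ± 0.90 (ValR), with edgeR adjusted p = 0.134, 0.0321 and 0.0293, so that it rose for LeuR and ValR. The LeuR call was lost without Control 1, Control 3, Control 5, LeuR 19 and LeuR 21, with an edgeR adjusted p of up to 0.0944, and the ValR call was lost without Control 1, Control 3, Control 4, Control 5, ValR 7 and ValR 9, with an edgeR adjusted p of up to 0.0781.

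The remaining genes of this list were called for no diet, and several of them were high in Control 4. Barhl1 was at 0, 0.0592, 13.3 and 0.0559 CPM in Control-fed, 6.21, 15.3 and 17.7 in IleR-fed, 3.89, 6.15 and 1.98 in LeuR-fed and 8.06, 7.28, 15.5 and 19.6 in ValR-fed males. Control 4 lay among the restricted libraries, while the other Control males held 2 counts in all. With all libraries its log2 fold change was 1.97 ± 1.19 (IleR), 0.25 ± 1.22 (LeuR) and 1.92 ± 1.14 (ValR), with edgeR adjusted p = 0.298, 0.920 and 0.253, and without Control 4 the gene passed for each diet (edgeR adjusted p = 6.46e-05, 0.000492 and 3.24e-05). En1, at 0 in the other Control-fed males and 6.30 CPM in Control 4, passed for each diet without that library as well (edgeR adjusted p = 0.000450, 0.00208 and 0.00102). Lhx9 was at 33.0 CPM in Control 4, against 0.272 to 3.08 CPM in the other Control-fed males and 1.15 to 20.0 CPM in restricted males. Without Control 4 it passed for IleR (edgeR adjusted p = 0.0215). Pitx3, a factor of midbrain dopamine neurons, stayed at or below 0.509 CPM, its highest male level, in Control 4. Hmx2 and Hmx3, which lie 3848 bases apart, were at 0 in the 4 Control-fed males and highest in LeuR 21, at 1.24 and 3.39 CPM.

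The 5 Iroquois genes, which pattern midbrain, hindbrain and spinal cord, were each under 1 CPM in 3 Control-fed males. Control 4 was within the range of the restricted libraries for Irx1, Irx2, Irx3 and Irx5, and above them for Irx6, which was called for no diet with all libraries and for IleR without Control 4 (edgeR adjusted p = 0.00887). Irx3 (ENSMUSG00000031734, chr8:91798525-91802067, minus strand) was at 0.204, 0.414, 5.16 and 0.503 CPM in Control-fed, 9.13, 11.8 and 7.70 in IleR-fed, 9.45, 7.68 and 2.77 in LeuR-fed and 12.7, 9.24, 8.49 and 6.63 in ValR-fed males. All restricted libraries but LeuR 21 were above Control 4. On the log2 scale the fold changes were 2.61 ± 0.76 (IleR), 2.08 ± 0.76 (LeuR) and 2.56 ± 0.74 (ValR), with edgeR adjusted p = 0.0348, 0.0982 and 0.0225, so that Irx3 rose for IleR and ValR. The IleR call was lost without Control 1, Control 3, Control 5, IleR 13, IleR 14 and IleR 17, with an edgeR adjusted p of up to 0.107, and the ValR call was lost without Control 1, Control 3, Control 5 and ValR 7, with an edgeR adjusted p of up to 0.0617. Without Control 4 the 3 changes were 4.63, 4.10 and 4.58, and Irx1, Irx2, Irx3 and Irx5 passed for all 3 diets.

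Of the 3 paired-box factors, 2 rose in IleR-fed and ValR-fed males, 1 fell in ValR-fed males and 0 were called in LeuR-fed males. Pax6 (ENSMUSG00000027168, chr2:105668900-105697364, plus strand), which is on in cerebellar granule cells as well as in forebrain progenitors, was at 9.26, 9.94, 6.24 and 11.1 CPM in Control-fed, 39.2, 46.8 and 82.9 in IleR-fed, 13.1, 41.7 and 12.8 in LeuR-fed and 64.6, 30.8, 91.2 and 95.8 in ValR-fed males. Each restricted library lay above each Control library. The test gave log2 fold changes of 2.62 ± 0.46 (IleR), 1.29 ± 0.46 (LeuR) and 2.95 ± 0.45 (ValR), with edgeR adjusted p = 0.00270, 0.0916 and 0.000521, and the IleR and ValR calls held in all 14 fits that left out 1 library. Without LeuR 21 it passed for LeuR as well (edgeR adjusted p = 0.0438).

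Pax3 (ENSMUSG00000004872, chr1:78101267-78197134, minus strand), a dorsal neural tube factor, was at 0, 0.0592, 1.27 and 0 CPM in Control-fed, 2.30, 4.18 and 6.93 in IleR-fed, 2.60, 3.92 and 0 in LeuR-fed and 4.75, 4.04, 4.54 and 6.69 in ValR-fed males. IleR-fed and ValR-fed males were above Control 4, and LeuR 21 was at 0. The log2 fold change was 3.74 ± 1.15 (IleR), 2.69 ± 1.16 (LeuR) and 3.91 ± 1.11 (ValR), with edgeR adjusted p = 0.0425, 0.156 and 0.0219, so that Pax3 rose for IleR and ValR. The IleR call held only in the 4 of 14 fits without Control 4, LeuR 19, LeuR 20 and LeuR 21, with an edgeR adjusted p of up to 0.132 in the others, and the ValR call was lost without Control 1, Control 3, Control 5 and ValR 12, with an edgeR adjusted p of up to 0.0630. With Control 4 left out, the other Control males held 1 count and Pax3 passed for each diet (edgeR adjusted p = 0.00310, 0.0112 and 0.00172), and without LeuR 21 it also passed for LeuR (edgeR adjusted p = 0.0347). Pax7 (ENSMUSG00000028736, chr4:139737062-139833528, minus strand), a factor of the dorsal midbrain, was at 0, 0.355, 15.0 and 0 CPM in Control-fed, 2.36, 9.15 and 5.63 in IleR-fed, 2.28, 1.23 and 0.508 in LeuR-fed and 0, 0, 0.118 and 0.191 in ValR-fed males. Control 4 was the highest male library and the other Control males were at or near 0. Its fall for ValR (log2 fold change −5.45 ± 1.80, edgeR adjusted p = 0.0425) rested on Control 4, since without it the change was −0.54 (edgeR adjusted p = 0.822), and Pax7 was higher and passed for IleR (5.49, edgeR adjusted p = 0.00260) and LeuR (3.41, edgeR adjusted p = 0.0393).

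In the POU family, 3 of 7 members fell for each diet and 0 rose. Pou3f1 (ENSMUSG00000090125, chr4:124656807-124660655, plus strand), also called Oct6 and on in cortical neurons, was at 31.4, 48.6, 31.4 and 28.1 CPM in Control-fed, 15.3, 12.8 and 11.5 in IleR-fed, 11.6, 12.1 and 10.9 in LeuR-fed and 8.21, 10.2, 8.32 and 7.90 in ValR-fed males. Every Control library was above every restricted library. On the log2 scale the fold changes were −1.40 ± 0.18 (IleR), −1.60 ± 0.19 (LeuR) and −2.01 ± 0.17 (ValR), with edgeR adjusted p = 0.000975, 0.00281 and 8.10e-05. Pou3f2 (ENSMUSG00000095139, chr4:22482780-22488366, minus strand), known as Brn2, was at 40.3, 36.7, 33.3 and 53.4 CPM in Control-fed, 25.3, 25.3 and 18.6 in IleR-fed, 26.2, 18.8 and 26.2 in LeuR-fed and 18.6, 17.7, 17.5 and 17.8 in ValR-fed males. Control libraries were again above all others. It changed by −0.83 ± 0.17 (IleR), −0.78 ± 0.17 (LeuR) and −1.19 ± 0.16 (ValR) on the log2 scale (edgeR adjusted p = 0.00607, 0.0146 and 0.000242).

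Pou3f3 (ENSMUSG00000045515, chr1:42695768-42703176, plus strand), known as Brn1, was at 132, 155, 101 and 141 CPM in Control-fed, 83.1, 81.6 and 66.8 in IleR-fed, 83.1, 78.8 and 68.1 in LeuR-fed and 67.9, 65.1, 71.1 and 63.0 in ValR-fed males. The lowest Control value, 101 CPM, was above the highest restricted value, 83.1 CPM. Its change was −0.78 ± 0.13 (IleR), −0.79 ± 0.13 (LeuR) and −0.99 ± 0.12 (ValR), with edgeR adjusted p = 0.00231, 0.00596 and 0.000181. All 9 calls of Pou3f1, Pou3f2 and Pou3f3 held in all 14 fits that left out 1 library.

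The fourth gene of the POU III class, Pou3f4, was at 4.26 to 9.19 CPM in Control-fed and 4.08 to 7.35 CPM in restricted males, and passed no test. The POU IV genes Pou4f1, Pou4f2 and Pou4f3, which mark sensory and midbrain neurons, passed none either. Control 4 held 8.15 CPM of Pou4f1 and 12.9 CPM of Pou4f2, against at most 0.237 CPM in the other Control-fed males. Restricted males ranged from 0.0564 to 4.39 CPM for Pou4f1 and from 0 to 7.01 CPM for Pou4f2, below Control 4 in each library. Without Control 4, Pou4f1 and Pou4f2 passed for IleR (edgeR adjusted p = 0.0292 and 0.00314) and ValR (edgeR adjusted p = 0.0251 and 0.00978) and were higher than in Control, while Pou4f3 passed for no diet.

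The 3 MEIS genes, whose products pair with PBX and HOX proteins, went different ways. Meis1 (ENSMUSG00000020160, chr11:18879817-19018985, minus strand), which is on in cerebellar granule cells, was at 9.13, 4.38, 9.68 and 5.87 CPM in Control-fed, 28.7, 33.1 and 43.9 in IleR-fed, 29.9, 29.1 and 8.18 in LeuR-fed and 48.0, 39.1, 51.0 and 54.6 in ValR-fed males. All libraries of IleR-fed and ValR-fed males were above those of Control-fed males, and LeuR 21 was among the Control values. The test gave log2 fold changes of 2.28 ± 0.37 (IleR), 1.63 ± 0.37 (LeuR) and 2.73 ± 0.36 (ValR), with edgeR adjusted p = 0.00180, 0.0180 and 0.000242, a rise for each diet. The LeuR call was lost without Control 3, LeuR 19 and LeuR 20, with an edgeR adjusted p of up to 0.0899.

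Meis2 (ENSMUSG00000027210, chr2:115863064-116065839, minus strand), which is high in striatal and other GABA neurons, was at 189, 79.5, 102 and 96.6 CPM in Control-fed, 77.4, 73.6 and 47.2 in IleR-fed, 122, 96.5 and 55.3 in LeuR-fed and 51.2, 85.3, 63.7 and 40.6 in ValR-fed males. Control 1 was the highest library. LeuR-fed and ValR-fed males overlapped with Control-fed males, and the highest IleR value, 77.4 CPM, was just below the lowest Control value, 79.5 CPM. The log2 fold change was −0.82 ± 0.34 (IleR), −0.36 ± 0.34 (LeuR) and −0.96 ± 0.31 (ValR), with edgeR adjusted p = 0.125, 0.536 and 0.0416. The gene fell for ValR, and the call held only in the 6 of 14 fits without Control 3, Control 4, ValR 9, IleR 17, LeuR 19 and LeuR 21, with an edgeR adjusted p of up to 0.153 in the others. Meis3 stayed between 17.8 and 25.1 CPM in all 14 male libraries.

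The 3 dorsal hindbrain and spinal cord factors all rose for IleR, and 2 of them rose for LeuR and ValR, as did Evx2 when Control 4 was left out. Tlx3 (ENSMUSG00000040610, chr11:33200752-33203589, minus strand), a selector of excitatory neurons in the dorsal cord and hindbrain, was at 0, 0, 0 and 0 CPM in Control-fed, 3.35, 3.58 and 4.74 in IleR-fed, 1.84, 4.92 and 0 in LeuR-fed and 8.64, 6.27, 3.24 and 4.33 in ValR-fed males. Control libraries held no count, and LeuR 21 none either. Against a floor of 3 counts per library it was at least 21.0-fold higher with IleR, 12.2-fold with LeuR and 30.4-fold with ValR (edgeR adjusted p = 0.00544, 0.0179 and 0.00181).

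Lbx1 (ENSMUSG00000025216, chr19:45232684-45235812, minus strand), which specifies dorsal inhibitory neurons, was at 0, 0, 0 and 0 CPM in Control-fed, 6.52, 9.83 and 4.21 in IleR-fed, 11.6, 13.1 and 0 in LeuR-fed and 15.1, 22.7, 7.20 and 9.49 in ValR-fed males. As for Tlx3, LeuR 21 and the Control libraries held no count. On the same floor its level was higher by at least 37.0-fold for IleR, 44.4-fold for LeuR and 73.6-fold for ValR (edgeR adjusted p = 0.00846, 0.0139 and 0.00233). Evx2 (ENSMUSG00000001815, chr2:74652991-74659557, minus strand), an even-skipped factor at the edge of the HoxD cluster, was at 0, 0, 1.15 and 0 CPM in Control-fed, 4.41, 4.37 and 3.32 in IleR-fed, 3.58, 2.92 and 0 in LeuR-fed and 1.44, 2.49, 1.47 and 1.21 in ValR-fed males. IleR-fed and ValR-fed males were above Control 4, the one Control library with counts. On the log2 scale the fold changes were 3.81 ± 1.19 (IleR), 2.92 ± 1.20 (LeuR) and 2.53 ± 1.16 (ValR), with edgeR adjusted p = 0.0459, 0.136 and 0.137. The rise for IleR held only in the 3 of 14 fits without Control 4, LeuR 19 and LeuR 21, with an edgeR adjusted p of up to 0.109 in the others. Without Control 4, whose 18 counts were the Control counts of the gene, Evx2 passed for each diet (edgeR adjusted p = 0.00445, 0.0112 and 0.00961), and without LeuR 21 it passed for LeuR (edgeR adjusted p = 0.0306).

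**Figure D3:**
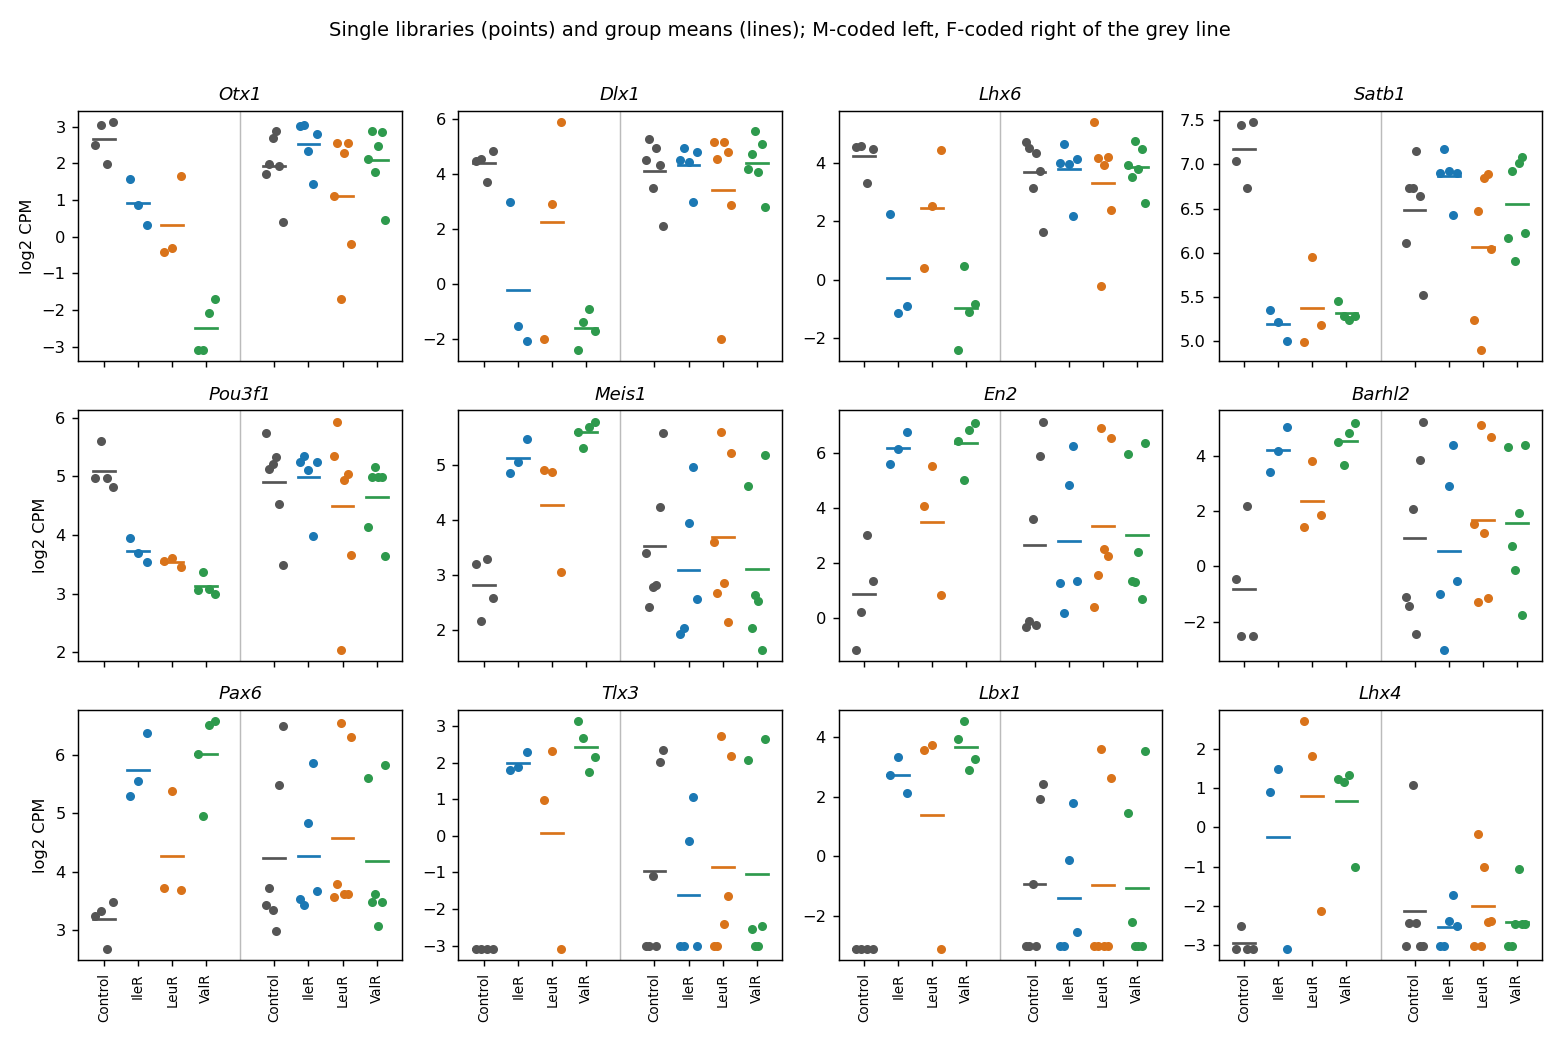
Level (y axis, log2 CPM) of 12 members in every library, by diet along the x axis, with males left and females right of the grey line. Points are libraries and lines are group means. The male group means of Otx1, Dlx1 and Lhx6 are lowest for ValR, while single IleR and LeuR libraries overlap with ValR for Dlx1 and Lhx6. En2, Barhl2 and Pax6 lie higher in IleR-fed and ValR-fed than in Control-fed males, while in females the points of the diets overlap.

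Of the 7 cut, zinc finger and prospero-type members, 1 rose and 1 fell for IleR, 1 fell for LeuR, and 1 rose and 2 fell for ValR. Satb1 (ENSMUSG00000023927, chr17:51736187-51833290, minus strand), a chromatin organiser on in cortical neurons, was at 131, 175, 106 and 178 CPM in Control-fed, 40.7, 37.2 and 31.9 in IleR-fed, 31.6, 61.8 and 36.2 in LeuR-fed and 43.7, 39.0, 37.6 and 38.9 in ValR-fed males. The Control range of 106 to 178 CPM stood clear of all restricted libraries, the highest of which was 61.8 CPM. The test gave log2 fold changes of −2.01 ± 0.23 (IleR), −1.78 ± 0.23 (LeuR) and −1.89 ± 0.21 (ValR), with edgeR adjusted p = 0.000799, 0.00314 and 0.000112, and the fall held for each diet in all 14 fits that left out 1 library.

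Prox1 (ENSMUSG00000010175, chr1:190118035-190170714, minus strand), a factor of dentate granule cells, thalamus and oligodendrocyte progenitors, was at 18.2, 33.8, 34.7 and 40.2 CPM in Control-fed, 61.6, 45.5 and 70.6 in IleR-fed, 38.1, 60.9 and 41.7 in LeuR-fed and 51.7, 49.1, 68.1 and 74.4 in ValR-fed males. IleR-fed and ValR-fed males were above the highest Control value, 40.2 CPM. The log2 fold change was 0.90 ± 0.25 (IleR), 0.56 ± 0.25 (LeuR) and 0.94 ± 0.24 (ValR), with edgeR adjusted p = 0.0292, 0.176 and 0.0119, so that Prox1 rose for IleR and ValR. The IleR call was lost without Control 1, Control 3, IleR 13 and IleR 17, with an edgeR adjusted p of up to 0.125. Onecut2 (ENSMUSG00000045991, chr18:64340020-64400987, plus strand), a cut-type factor, was at 12.1, 5.68, 6.56 and 9.61 CPM in Control-fed, 6.77, 5.24 and 4.68 in IleR-fed, 7.25, 6.92 and 9.26 in LeuR-fed and 4.75, 4.72, 5.96 and 4.40 in ValR-fed males. ValR 10 lay above the lowest Control value, so that the groups overlapped. On the log2 scale the fold changes were −0.61 ± 0.25 (IleR), −0.12 ± 0.25 (LeuR) and −0.77 ± 0.23 (ValR), with edgeR adjusted p = 0.125, 0.804 and 0.0295. The gene fell for ValR, and the call was lost without Control 1, Control 5, ValR 7, ValR 9 and ValR 12, with an edgeR adjusted p of up to 0.104. Cux1, a marker of upper-layer cortical neurons, was at 88.0 to 139.9 CPM in Control-fed and 78.3 to 139.8 CPM in restricted males and passed no test with all libraries, nor did Zfhx3, Zfhx4 and Onecut1. Without Control 4, Zfhx3, Zfhx4 and Onecut1 were higher and passed for IleR (edgeR adjusted p = 0.00197, 0.00488 and 0.0172) and LeuR (edgeR adjusted p = 0.0102, 0.0189 and 0.0154), and Cux1 was lower and passed for LeuR (edgeR adjusted p = 0.00475).

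Levels per length gave a different view of the members, since a CPM value depends on transcript size. Per kilobase of exon, the highest mean male levels were 14.6 CPM for Nkx6-2, 13.6 CPM for En2, 12.1 CPM for Pou3f3 and 6.99 CPM for Meis2. In females Pou3f3 led at 14.0 CPM per kilobase, followed by Meis2 at 10.5, Nkx6-2 at 9.63 and En2 at 8.66. Hmx2 had the lowest level in both sexes, at 0.0576 and 0.0301 CPM per kilobase. Exons of 18 members overlap another annotated gene, 16 of them an antisense gene such as Emx2os, Dlx1as, Six3os1 or Prox1os, and how such reads were shared out is not given in the sources used here.

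Members were also compared between restricted diets, in the model that holds all 4 male diets. Between ValR-fed and LeuR-fed males, 2 members were lower for ValR (1.03% of all genes were lower) and 0 were higher (1.73%), with 2.75% of all genes called in either direction. They were Otx1 (log2 difference −4.06 ± 0.82, edgeR adjusted p = 0.0481) and Dlx1 (−6.48 ± 1.61, edgeR adjusted p = 0.04996). Both calls were close to the threshold. Leaving out 1 library at a time kept the Otx1 call in 6 of 14 fits and the Dlx1 call in 5. Without LeuR 21 both were lost. The Forebrain level was 1.56, 4.37 and 4.23 in LeuR 19, 20 and 21, against 1.55 to 1.85 in ValR-fed males. Its part in these calls was not tested. DESeq2 kept both calls, and both were lost with limma voom, with the hindbrain score in the model and with ValR and LeuR alone in the model. Lhx6 was next, at −4.12 ± 1.05 (edgeR adjusted p = 0.0525), and Pax6 was 1.66 ± 0.47 higher (edgeR adjusted p = 0.0631). Between ValR and IleR, and between IleR and LeuR, edgeR called 0 members and 0.0% of all genes, with 7 and 9 members at an unadjusted p below 0.05. By DESeq2, 1 member was called between ValR and IleR and 0 between IleR and LeuR.

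In females no member was called for any diet. Of the 53 members 40 passed the filter, and edgeR called 0 of them, and 0.0% of all 20344 genes, for IleR, LeuR and ValR against Control and between the diets. No member had an unadjusted p below 0.05 against Control, and DESeq2 and limma voom also called 0 members. Log2 fold changes ranged from −0.76 to 1.17 for IleR, −0.56 to 1.45 for LeuR and −0.74 to 2.21 for ValR. Of the 13 members not tested, Tlx3 and Lbx1 were at 0 in libraries of every diet and reached 6.55 and 12.0 CPM in LeuR 45. The tests leave wide room, as the log2 fold changes of En2 show, at −0.68 ± 1.46 (IleR), 0.09 ± 1.37 (LeuR) and −0.45 ± 1.38 (ValR).

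Within each diet, levels in females covered a wide range. Otx1 was at 1.20, 3.74 and 7.17 CPM (lowest, median and highest) in Control-fed, 2.58, 4.94, 6.77, 7.91 and 8.09 (all 5 libraries) in IleR-fed, 0.185, 3.35 and 5.75 in LeuR-fed and 1.24, 4.79 and 7.25 in ValR-fed females. Satb1 was at 46.0, 103 and 142 CPM (lowest, median and highest) in Control-fed, 86.0, 119, 119, 121 and 145 (all 5 libraries) in IleR-fed, 29.7, 77.3 and 118 in LeuR-fed and 59.9, 98.2 and 136 in ValR-fed females. The diets overlapped over most of their range for both genes. En2 was at 0.685, 6.41 and 140.0 CPM (lowest, median and highest) in Control-fed, 1.03, 2.30, 2.46, 28.9 and 75.5 (all 5 libraries) in IleR-fed, 1.22, 5.13 and 118 in LeuR-fed and 1.51, 3.79 and 81.5 in ValR-fed females, and Barhl2 was at 0.0607, 2.22 and 37.6 CPM (lowest, median and highest) in Control-fed, 0, 0.374, 0.564, 7.38 and 21.0 (all 5 libraries) in IleR-fed, 0.286, 2.49 and 34.6 in LeuR-fed and 0.174, 2.60 and 21.0 in ValR-fed females. For both genes each diet held at least 1 library above 20 CPM and at least 1 library at 1.51 CPM or below. Pax6 was at 7.71, 11.8 and 90.7 CPM (lowest, median and highest) in Control-fed, 10.7, 11.5, 12.6, 28.3 and 58.3 (all 5 libraries) in IleR-fed, 11.7, 13.0 and 94.0 in LeuR-fed and 8.23, 11.6 and 57.1 in ValR-fed females. Meis1 was at 5.23, 8.66 and 47.1 CPM (lowest, median and highest) in Control-fed, 3.67, 3.97, 5.79, 15.3 and 31.1 (all 5 libraries) in IleR-fed, 4.31, 9.59 and 47.8 in LeuR-fed and 3.02, 5.87 and 36.2 in ValR-fed females. Dlx1 was at 4.20, 21.5 and 38.5 CPM (lowest, median and highest) in Control-fed, 7.73, 21.5, 22.8, 27.7 and 31.2 (all 5 libraries) in IleR-fed, 0.124, 25.7 and 36.1 in LeuR-fed and 6.85, 22.5 and 47.5 in ValR-fed females. LeuR 45 was lowest for Dlx1, Otx1 and Lhx6, and its Forebrain level, 1.56 as mean log2 CPM, was the lowest of the females.

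The regional markers gave each female library a place. Mean log2 CPM of the Cerebellum markers was 5.67 to 7.84 in 8 female libraries, 2 of each diet (Control 29 and 30, IleR 40 and 41, LeuR 45 and 48, ValR 31 and 36), and lower than 2.5 in the other 15. The difference of the Cerebellum level from Control was −0.13, −0.03 and 0.06 for IleR, LeuR and ValR in females (two-sided exact permutation p = 0.937, 0.974 and 0.955), against 6.26, 3.59 and 6.85 in males (exact permutation p = 0.0286 for each, the smallest these group sizes allow, and 0.193 after adjustment over 54 comparisons). Male Control libraries thus lay with the low female libraries, and IleR-fed and ValR-fed males with the high ones.

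**Figure D4:**
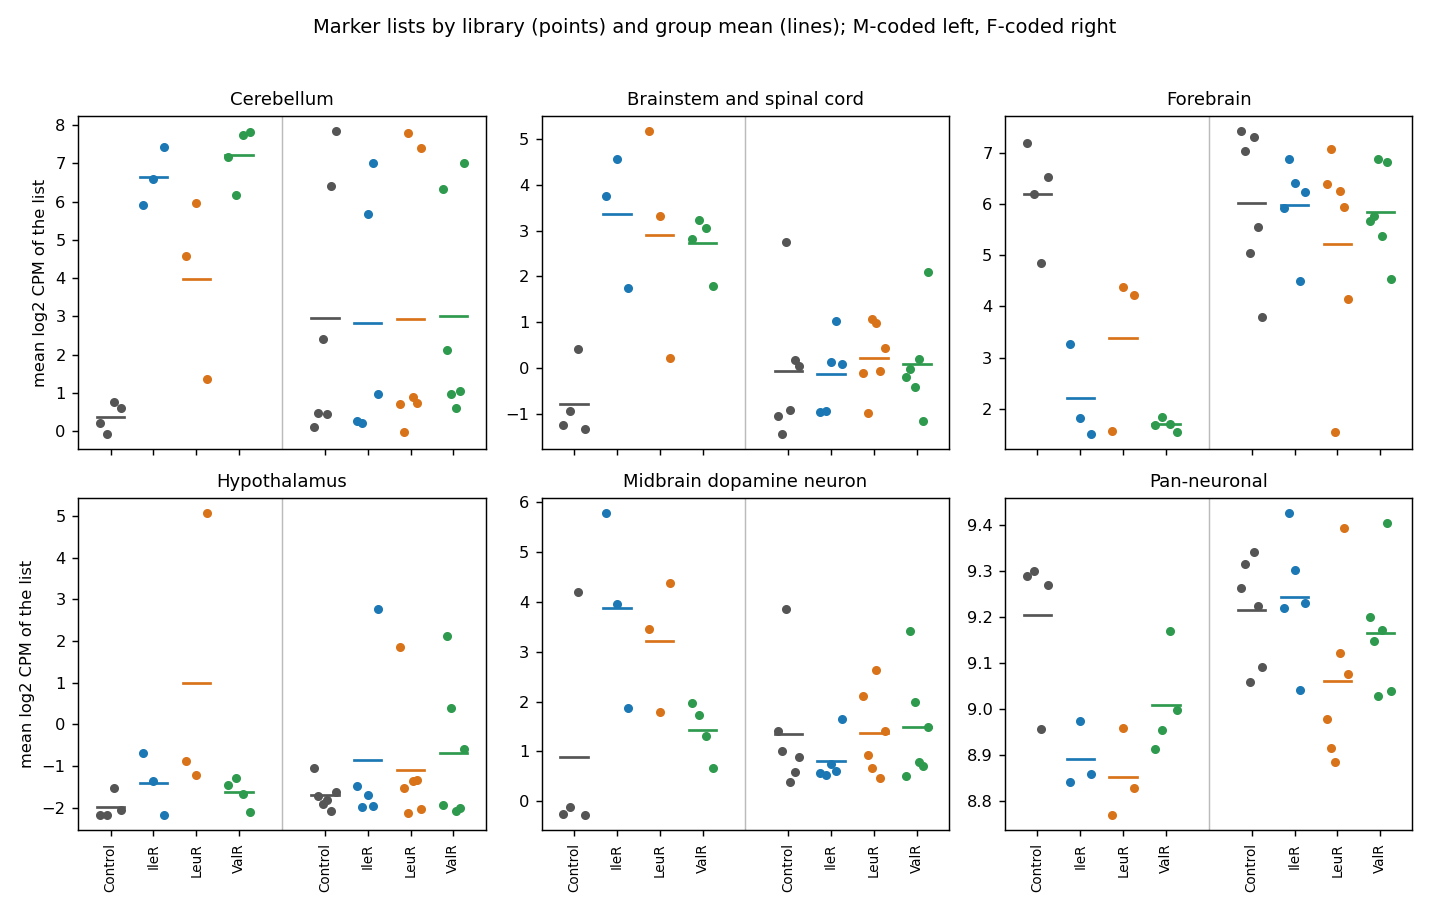
Mean log2 CPM (y axis) of 6 regional and cell type marker lists in every library, by diet along the x axis, males left and females right of the grey line. Points are libraries and lines are group means. In males the Cerebellum points of Control lie between −0.07 and 0.77 and those of IleR and ValR between 5.91 and 7.82, while in females each diet has 2 libraries above 5 and the others below 2.5.

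To describe how the members varied among libraries of 1 diet, each was fitted on a regional level with diet in the model, so that differences between diets do not enter the slope. In females, 11 of 40 members rose with the Cerebellum level (20.6% of all genes rose) and 17 fell (22.4%). The share that fell was above the background and the share that rose was close to it. All 9 tested members of the telencephalon and GABA neuron list fell with the Cerebellum level. Among those that rose were En2 (0.79 ± 0.04 log2 units of the gene per log2 unit of the markers), Barhl2 (0.74 ± 0.06), Pax6 (0.39 ± 0.02) and Meis1 (0.38 ± 0.03). Dlx6 (−0.44 ± 0.09), Pou3f1 (−0.23 ± 0.03) and Satb1 (−0.10 ± 0.03) fell with it.

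With the Forebrain level, 17 of 40 members rose (22.1% of all genes) and 12 fell (20.8%) in females. All 9 tested telencephalon and GABA neuron members rose with it, with slopes such as 1.45 ± 0.12 for Dlx6, 0.93 ± 0.10 for Dlx1, 0.65 ± 0.07 for Meis2, which belongs to the MEIS list, 0.67 ± 0.12 for Emx2 and 0.60 ± 0.14 for Otx1. En2 had a slope of −1.67 ± 0.28. With the Brainstem and spinal cord level 12 members rose (6.08% of all genes) and 2 fell (6.27%). Barhl2 (2.13 ± 0.67), Pou4f1 (1.64 ± 0.37), Irx1 (1.06 ± 0.25) and Nkx6-1 (0.79 ± 0.18) were among those that rose, at edgeR adjusted p values of 0.0434, 0.0106, 0.0123 and 0.0105. That count fell to 6 without Control 26, ValR 35 or IleR 41, and to 7 without ValR 36. The 3 sets of slopes come from the same libraries and are not separate evidence.

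In males, where diet takes up most of the spread of the markers, few slopes passed. En2 (1.10 ± 0.17, edgeR adjusted p = 0.00571) and Meis1 (0.42 ± 0.08, edgeR adjusted p = 0.0143) rose with the Cerebellum level among libraries of a diet, where 1.39% of all genes rose, 1.65% fell and 3.04% did either. Nkx6-1 rose with the Brainstem and spinal cord level (0.83 ± 0.13, edgeR adjusted p = 0.0456, where 0.0811% of all genes rose and 0.0135% fell). Leaving out 1 library gave 0 to 2 members that rose with that level and 0 to 3 that fell. With filterByExpr 0 rose, and with limma voom 3 rose and 1 fell. With the Forebrain level edgeR called 0 members in males, where 0.189% of all genes rose and 0.00451% fell, and leaving out 1 library gave up to 2 that rose and 3 that fell.

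**Figure D5:**
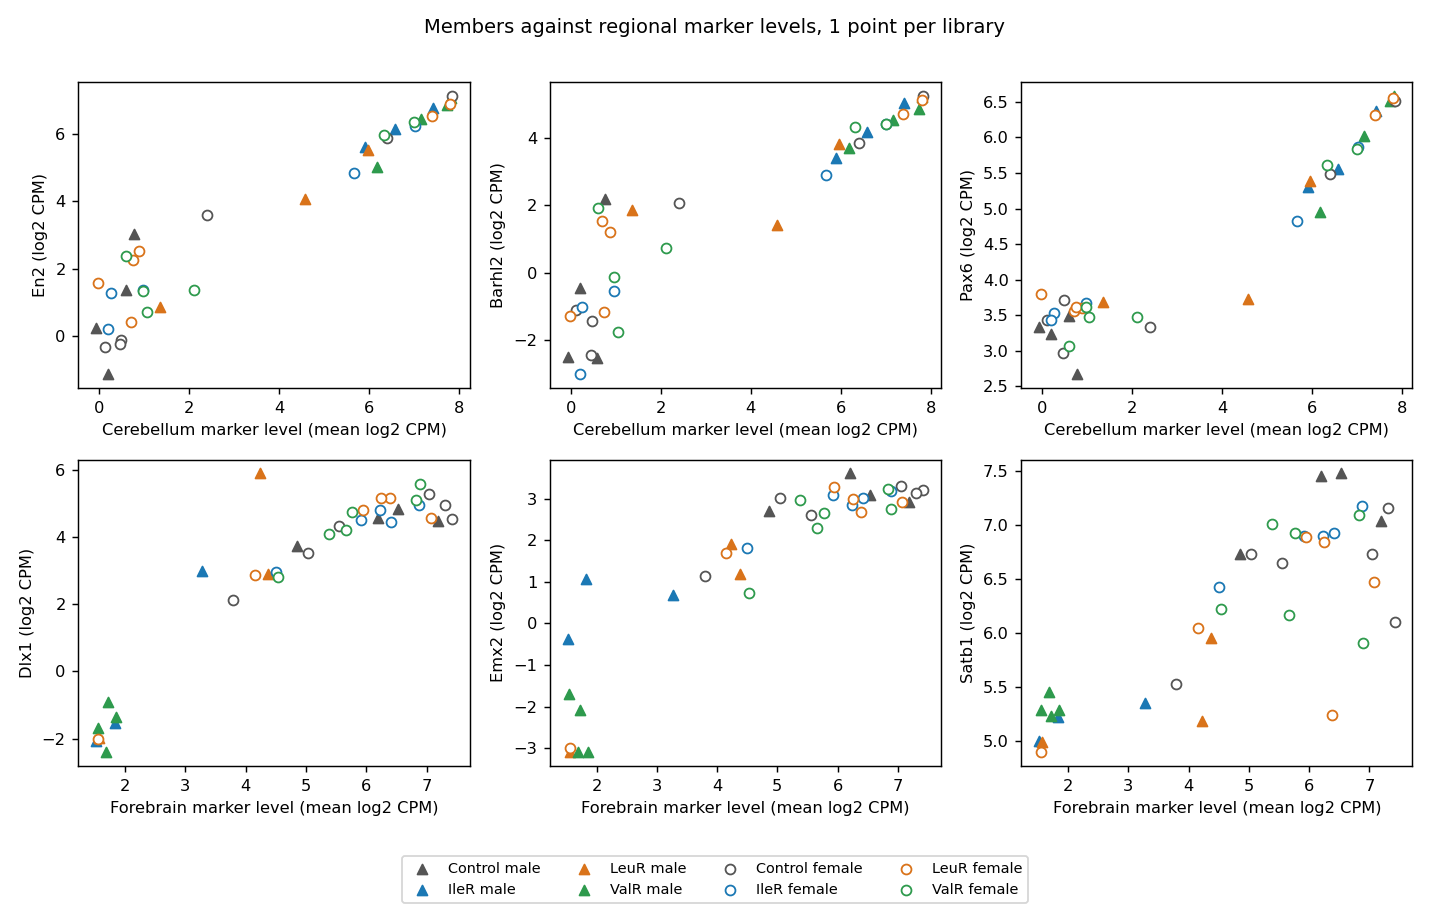
Log2 CPM of En2, Barhl2 and Pax6 (y axes) against the Cerebellum marker level (x axis, mean log2 CPM) and of Dlx1, Emx2 and Satb1 against the Forebrain marker level, for all 37 libraries, with diet by colour and sex by symbol. En2, Barhl2 and Pax6 are high in the libraries with a Cerebellum level above 5 in both sexes, and Dlx1, Emx2 and Satb1 are low in the libraries with a Forebrain level below 2.

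The sex difference in the diet effects was tested in 1 model of all 37 libraries, as the change against Control in males minus that in females. For ValR 1 member had a higher change in males (0.677% of all genes) and 6 had a lower one (3.57%). They were Lhx4 (8.26 ± 2.15, edgeR adjusted p = 0.0302), and in the other direction Otx1 (−6.39 ± 1.09, 0.00785 by the same test), Emx2 (−6.35 ± 1.25, 0.00803), Dlx1 (−6.70 ± 1.60, 0.0207), Dlx2 (−7.26 ± 1.83, 0.0267), Lhx6 (−5.20 ± 1.19, 0.0172) and Satb1 (−1.96 ± 0.44, 0.0158). All 7 calls were lost with limma voom and with the hindbrain score in the model, and DESeq2 kept all 7. The fitted values of Lhx4 and Dlx2 lean on groups with 1 or 2 counts. When 1 library was left out, the Lhx4 call was lost in 7 of 37 fits, with an edgeR adjusted p of up to 0.310. Among these was the fit without female Control 27, which stood apart from the other Control-fed females at 1.98 CPM of Lhx4. For IleR, Satb1 alone passed (−2.32 ± 0.48, edgeR adjusted p = 0.0430, with 0.0979% of all genes called), and for LeuR 0 members did (0.00445% of all genes). That call, too, was lost with limma voom and with the hindbrain score. The Cerebellum level of Control-fed males lay below that of each restricted male library, while the female diets overlapped in it, and its part in these differences was not tested.

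A list of 33 further homeobox and paired-box genes was matched for 32. Of these, 27 were tested in males, of which 10 rose and 6 fell in IleR-fed males, 10 rose and 4 fell in LeuR-fed males and 13 rose and 6 fell in ValR-fed males. Over all genes tested, 6.63%, 3.81% and 11.1% rose and 8.68%, 6.33% and 12.4% fell in the same order. Emx1, a factor of the dorsal telencephalon, fell for ValR (log2 fold change −6.81 ± 0.78). Pax2, which marks the isthmus and cerebellar interneurons, was at 0.118 to 0.573 CPM in Control-fed and 12.3 to 33.0 CPM in ValR-fed males (6.30 ± 0.99). Lmx1b, a factor of serotonin and dopamine neurons, rose for ValR too (5.08 ± 0.82). The moves were not particular to ValR. Mean levels in Control-fed, IleR-fed, LeuR-fed and ValR-fed males were 15.5, 0.612, 1.28 and 0.133 CPM for Emx1. In the same order they were 0.280, 10.5, 13.6 and 22.5 CPM for Pax2 and 0.204, 5.15, 4.76 and 7.04 CPM for Lmx1b. The lowest LeuR value of Pax2, 0.226 CPM, lay within the Control range. Of 8 TALE partners of the MEIS proteins, 1 rose and 2 fell for IleR, 2 fell for LeuR, and 1 rose and 3 fell for ValR, to be read against the same shares. Pknox2 (−1.62 ± 0.18) was among those that fell, and Tgif2 rose (0.90 ± 0.28, edgeR adjusted p = 0.0324). In females 0 genes of either list were called by edgeR.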

How the data were processed

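Libraries, library preparation, RNA extraction and sequencing were the authors' work. The labels name polyA-selected mRNA in 1 place and total RNA in another, so the RNA selection is uncertain, and 1 label text names liver where the others name brain. Reads were aligned by the authors to GRCm38.p5 (aligner not given in the sources used here), and the authors deposited expected counts per Ensembl gene, without normalization, for 37 of 47 labelled libraries. Of their values, 3.69% to 4.93% per library were not whole. The submitters' processing notes name R 3.4.3, edgeR and limma. The authors removed libraries that they judged outliers after principal component analysis.

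Expected counts were rounded. Names and coordinates came from GENCODE M21 (GRCm38), in which 3333 of 55416 identifiers are absent. A gene was kept if some diet group had no library under 1 count for it. The 4 diets of a sex were fitted in 1 model in R 4.3.3 with edgeR 4.0.16 (TMM, quasi-likelihood test), with Benjamini-Hochberg adjustment over all genes and a threshold of 0.05. The error of a log2 fold change is the SE from that test. Log2 CPM used a prior count of 2. Regional levels are the mean log2 CPM of fixed marker lists that hold no member, tested with two-sided exact permutation tests. Folds against a group at 0 are lower bounds against 3 counts per library, and ratios on 1 to 3 counts have exact 95% counting intervals, which cover counting error only. The scripts were tested on simulated data.

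The members and lists were chosen with earlier results of these data known. Values in every library are given for up to 3 members of each role list, those called for the most diets in males, then by the smallest adjusted p; values of other members were chosen after they were seen. Alternatives were RLE size factors, DESeq2 1.42.0, limma 3.58.1 (voom), no filter, edgeR's filterByExpr, a threshold of 0.01, fits of 2 groups alone, the hindbrain score as a covariate, a prior count of 0.5, and fits without each library in turn. The study counts its groups in mice, but the labels do not tie each library to a mouse, so p-values measure the spread between these libraries, of which IleR-fed and LeuR-fed males have 3 each.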

Additional observations from a re-analysis of the deposited data

Results flagged for a closer look

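In groups of 4 to 10 libraries, the level of each member whose libraries are listed was checked for a single library far from the others by Dixon's criterion. For normally distributed values, chance alone meets it in about 1 in 20 groups. That rate does not hold for these CPM values, since a group with counts in only 1 library meets the criterion by construction. It was met in 22 of 142 checks, which cannot be read as an excess over chance. In males 8 of these involved Control-fed mice. Control 4 stood apart with 9.74 CPM of Lhx6, 4.39 CPM of Barhl2, 5.16 CPM of Irx3, 1.27 CPM of Pax3, 15.0 CPM of Pax7 and 1.15 CPM of Evx2, low for Lhx6 and high for the others. Control 3 stood apart with 0.0592 CPM of Lhx4 and 48.6 CPM of Pou3f1. Among ValR-fed males it was 0.0590 CPM of Dlx6 in ValR 10 and 0.382 CPM of Lhx4 in ValR 12.

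In females, Control 27 stood apart with 1.98 CPM of Lhx4, 1.30 CPM of Nkx6-1 and 11.1 CPM of Pax7, and ValR 34 with 0.352 CPM of Lhx4 and 10.1 CPM of Pax7. IleR 41 had 15.8 CPM of Pou3f1 and 3.29 CPM of Lbx1. The others were 29.4 CPM of Nkx6-2 in IleR 42, 17.1 CPM of Gbx2 in ValR 32, 47.1 CPM of Meis1 in Control 30, 11.2 CPM of Lbx1 in ValR 36 and 19.5 CPM of Onecut2 in LeuR 44.

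The change against Control differed between the sexes, by edgeR's interaction test, in 8 cases, given as the male minus the female log2 fold change. For ValR these were Otx1 at −6.39, Dlx2 at −7.26, Satb1 at −1.96, Lhx6 at −5.20, Dlx1 at −6.70, Emx2 at −6.35 and Lhx4 at 8.26, and for IleR it was Satb1 at −2.32. Leaving out 1 library at a time, the Otx1, Satb1 and Emx2 results for ValR held in 37 of 37 fits, Lhx6 in 35, Dlx1 in 34, Dlx2 in 33 and Lhx4 in 30, and Satb1 for IleR in 14. With limma voom, and with the hindbrain score in the model, 0 of the 8 passed, and DESeq2 kept all 8. In males the Cerebellum level of Control was below that of each restricted library, and its part in these differences was not tested.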

How the results depend on the processing

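No paired analysis was possible because no library number recurs across diets. RLE size factors, no filter and filterByExpr kept all 20, 13 and 28 male calls of members for IleR, LeuR and ValR against Control. DESeq2 kept 17, 13 and 28, limma voom 17, 7 and 22, fits of 2 groups alone 14, 0 and 26, and the hindbrain score as a covariate 0, 0 and 0. The cause of each move below was not tested, except that a threshold of 0.01 calls fewer by construction and that fits of 2 groups hold fewer libraries.

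At a threshold of 0.01, 5 members rose and 4 fell for IleR, 1 and 3 for LeuR, 6 and 10 for ValR, 0 were called for ValR against LeuR, and 0 and 2 by the sex interaction for IleR and ValR; over all genes 1470, 406 and 2779 were called for IleR, LeuR and ValR, 0 for ValR against LeuR, and 0 and 80 by the interaction. With the hindbrain score in the model, 1 member rose and 0 fell for IleR, 1 and 1 for LeuR, 0 and 0 for ValR, 0 were called for ValR against LeuR and 0 by the IleR and ValR interactions; over all genes 4, 12, 0 and 0, and 0, 207 and 0 by the IleR, LeuR and ValR interactions. Its fitted changes reversed in sign, none past the threshold, for Evx2 (−2.20), Pax3 (−3.11), Lhx6 (2.10), Dlx6 (4.72), Irx3 (−0.98), Nkx6-1 (−1.06) and En2 (−0.59) under IleR, Meis1 (−0.0200) under LeuR, and Pax3 (−3.28), Dlx2 (2.17), Lhx6 (1.11), Dlx6 (3.17), Dlx5 (1.04), Irx3 (−1.25), Nkx6-1 (−1.23), En2 (−0.64), Dlx1 (2.40) and Onecut2 (0.15) under ValR. The difference of the Brainstem level for IleR in females became 0.0320 with a prior count of 0.5, and that of the Thalamus level for IleR in males −0.00732 with RLE.

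With 2 groups alone, 8 members rose and 11 fell for IleR, 0 and 0 for LeuR, and 0 were called for ValR against LeuR. Over all genes 1314 (6.16%) rose and 1960 (9.19%) fell for IleR, and 0 were called for LeuR and 0 for ValR against LeuR. DESeq2 called 12 members for ValR against LeuR, 1 for ValR against IleR and 5, 1 and 17 by the interactions; over all genes 3611 for LeuR, 2547, 7 and 107 between ValR and LeuR, ValR and IleR, and IleR and LeuR, in females 8 for IleR, 1 for LeuR and 2, 18 and 23 between those diets, and 1042, 310 and 2368 by the interactions. Limma voom called 5 members that rose for LeuR, 1 for ValR against LeuR, and 0 and 0 by the IleR and ValR interactions, 1 gene for IleR in females, and 0 and 29 genes by those interactions; of its slopes, 5 male members fell with the Cerebellum level, 3 rose and 1 fell with the Brainstem level, and 5 female members fell with the Brainstem level. Without a filter, 6 members were called for ValR against LeuR and 14 and 587 genes by the IleR and ValR interactions. With filterByExpr these were 5 members and, for IleR, 63 genes, 0 male members rose and 5 female members fell with the Brainstem level. RLE gave 50 genes for the IleR interaction.

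Leaving out 1 library at a time, members that rose and fell ranged from 6 to 26 and 4 to 11 for IleR, 2 to 23 and 4 to 7 for LeuR, and 8 to 22 and 11 to 16 for ValR, and 0 to 7 were called for ValR against LeuR; over all genes the ranges were 1838 to 4357, 543 to 3952, 3843 to 5990 and 0 to 1990. The rise for IleR was 8, 7 and 9 without Control 1, 3 and 5, 6, 8 and 8 without IleR 13, 14 and 17, and 26 without Control 4, and the fall was 10 and 11 without LeuR 19 and LeuR 21. The rise for LeuR was 5 and 3 without Control 1 and 3 and 2 without LeuR 19, and that for ValR was 9 and 8 without Control 1 and 3. In females 0 to 5 genes were called for IleR, 0 to 7 for ValR against IleR and 0 to 5 for IleR against LeuR. By the interactions 0 to 2 members were called for IleR and 3 to 16 for ValR, and 0 to 925, 1 to 598 and 191 to 2463 genes for IleR, LeuR and ValR. Slopes that rose and fell ranged, in males, from 2 to 6 and 0 to 5 for Cerebellum, 0 to 2 and 0 to 3 for Brainstem, and 0 to 2 and 0 to 3 for Forebrain, and in females from 10 to 12 and 16 to 18, 6 to 13 and 0 to 11, and 16 to 18 and 11 to 15; the 11 that fell with the Brainstem level came without Control 27, and 5 without Control 30 or LeuR 46. With 3 or 4 libraries a group in males, and with levels under 1 CPM for many members, small changes are beyond what these libraries resolve.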
